A study of Mus musculus with 6 samples.

Results

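Neutrophils of mice with bile duct injury were compared here for 34 genes of the unfolded protein response and of protein folding in the endoplasmic reticulum (ER). The genes were chosen by symbol, and all 34 were found among 53090 rows of the count files. Mice of both groups had eaten DDC (3,5-diethoxycarbonyl-1,4-dihydrocollidine), a porphyrinogenic compound that damages bile ducts, for 1 week. Liver neutrophils (3 libraries) were taken from liver suspensions by a Percoll density gradient and magnetic selection for Ly6G, which marks neutrophils in the mouse. Blood neutrophils (3 libraries) were taken by the same selection after lysis of blood. The design text gives n = 3. The sources used here do not state strain, sex or age, or whether any liver and blood library shared a mouse. Mice without the diet were not analysed here, so every value below sets liver cells against blood cells under DDC.

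Proteins destined for secretion, membranes and granules fold in the ER, where BiP (Hspa5) and its partners hold unfolded chains and disulfide isomerases join their cysteines. When unfolded proteins build up, the membrane sensors IRE1 (Ern1), ATF6 and PERK signal to the nucleus, which raises chaperones and the machinery of ER-associated degradation (ERAD), the export of misfolded proteins to the proteasome. IRE1 acts by splicing Xbp1 mRNA and ATF6 by being cut in the Golgi, and neither step can be seen in counts per gene. Mature neutrophils make few granule proteins, unlike their precursors in bone marrow, and XBP1 is best known among blood cells from plasma cells.

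The libraries held 13054673 to 17579669 counts, and 3 counts corresponded to 0.181 to 0.263 CPM (counts scaled to library size, with TMM factors). A gene is named as called where its adjusted p was under 0.05 by edgeR's quasi-likelihood test with Benjamini-Hochberg adjustment over 13458 genes. Selected cells of liver had less of the neutrophil markers than those of blood, with a summed level of 7745 to 13471 CPM in liver and 21045 to 32286 CPM in blood, and 9 of 9 called lower. Immature neutrophil markers summed to 1363, 299 and 626 CPM in liver 1, 2 and 3, with 0 of 5 tested markers called. In blood 1, 2 and 3 their sums were 465, 377 and 512 CPM. The part of these precursors in the levels below was not tested. Markers of some other cells were higher in liver. For monocytes the sum was 764 to 1143 CPM in liver and 65.2 to 130.2 CPM in blood, with 5 of 6 called higher. For hepatocytes it was 273 to 500.4 CPM in liver and 108 to 153 CPM in blood, with 7 of 11 called higher, and for Kupffer cells and macrophages 472 to 852 CPM in liver and 328 to 508 CPM in blood, with 4 of 11. Much of the hepatocyte sum was Trf, with 254, 175 and 255 CPM in liver and 146, 108 and 117 CPM in blood. Much of the macrophage sum was Csf1r, not called, with 401, 292 and 388 CPM in liver and 340, 351 and 287 CPM in blood. The hepatocyte gene Alb had 7.25, 73.2 and 148 CPM in liver 1, 2 and 3. In blood 1, 2 and 3 Alb had 2.44, 0.0876 and 0.47 CPM. Dendritic cell markers summed to 214 to 253 CPM in liver and 125 to 158 CPM in blood, with 4 of 7 called higher. Itgax, not called, made up much of that sum, with 165, 178 and 165 CPM in liver and 140, 117 and 110 CPM in blood. Liver endothelium markers summed to 22.3 to 49.9 CPM in liver and 14.9 to 18.9 CPM in blood, with 4 of 7 called higher. Called lower were 2 of 5 B cell markers, 1 of 7 T and NK cell markers and 3 of 6 platelet markers, among others. Plasma cells, rich in ER chaperones, had sums of 86.1 to 106 CPM in liver and 41.6 to 157 CPM in blood, with 2 of 7 markers called higher. Those were Prdm1, with 50.3, 33.8 and 36.7 CPM in liver and 4.38, 3.59 and 1.41 CPM in blood, and Sdc1, with 2.48, 2.29 and 2.57 CPM in liver and 0.0719, 0.175 and 0.134 CPM in blood. The defining marker Tnfrsf17 was at 0 in all 6 libraries, and Jchain was at 0 in blood and at most 0.196 CPM in liver. Ighm, not called, made up much of the plasma cell sums, with 48.8, 64.4 and 43.2 CPM in liver and 67.5, 122 and 38.0 CPM in blood. Igkc, also not called, had 3.85, 1.69 and 3.54 CPM in liver and 12.3, 30.5 and 2.08 CPM in blood. In bulk samples fewer cells of a type and less RNA per cell cannot be told apart.

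The major ER chaperones, disulfide isomerases and lectin chaperones among the members were mostly higher in liver neutrophils. The members Ern1, Atf6, Atf6b and Xbp1, the translocon members and 8 of 9 tested ERAD members did not pass the test, and of the J proteins and other BiP cofactors 1 of 5 did. Of these 9 chaperone, isomerase and lectin members, 8 were called higher and 0 lower, where 17.4% of all genes tested were called higher and 14.2% lower. Every liver library lay above every blood library for all 9, a pattern seen in 25.8% of all genes. Their log2 fold changes ran from 0.40 to 1.72, with a median of 1.20. Among the other 23 members tested, 2 were called higher and 1 lower, with a median of 0.06. The roles of the 9 were pooled with results of these data known, so these counts are a description and not a test.

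Of all members, 32 had enough counts to be tested, and 10 of these were called higher in liver and 1 lower. In either direction 34.4% of the tested members and 31.6% of all genes were called, so the pooled share was near the background. The directions were not balanced as in the background, where 17.4% of all genes were called higher and 14.2% lower. The members were chosen with earlier results known, so this is a description and not a test. The median log2 fold change was 0.22 for the tested members and 0.04 for all genes tested. The 10 higher calls became 6 without blood 3, namely Hspa5, Hyou1, Hsp90b1, Pdia6, P4hb and Canx. The liver libraries were all above the blood libraries for 13 members, and all below for 5, where 22.7% of all genes were below.

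**Figure D1:**
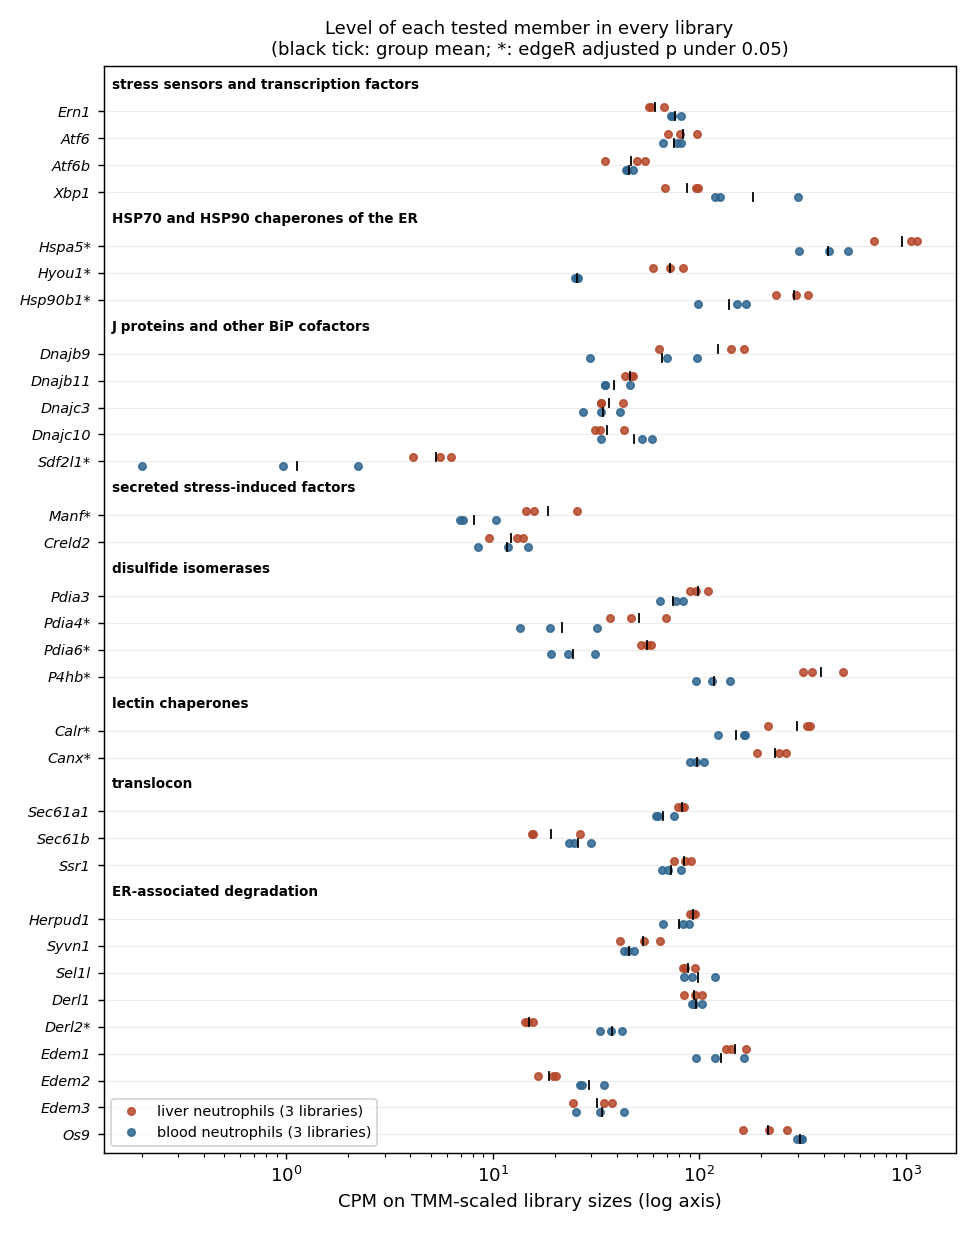
Level of the 32 tested members in each library, in CPM on a log axis, by role, with liver neutrophils (red) above blood neutrophils (blue) and group means as black ticks. The points of the 2 groups are apart for Hspa5, Hyou1, Hsp90b1 and all disulfide isomerases and lectin chaperones, and lie close or mixed for the translocon and most ERAD genes.

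Promoters of ER chaperones are known for the ER stress element, bound by NF-Y and ATF6, which is CCAAT and CCACG separated by 9 bases. This element was searched on both strands in RefSeq promoter windows (GRCm38.p6, from 250 bases before to 50 bases after a start site), which exist for 28 of the members in the table used. The full element was found for 9 of these 28 members, and for 37 of 27025 genes in the whole table, a share of 0.137%. The 9 were Calr, Canx, Creld2, Derl3, Dnajc3, Hsp90b1, Hspa5, Pdia6 and Syvn1. Stretches of the 8 tested ones, upstream of the RefSeq start site, are shown because the same element stands in members called higher and in members not called. They run 5′ to 3′ on the gene's strand with the element in capitals. Members called higher in liver come first, with Hspa5 from chr2:34772005-34772063 (plus strand), Hsp90b1 from chr10:86705513-86705676 (minus), Calr from chr8:84847055-84847113 (minus), Canx from chr11:50325780-50325838 (minus) and Pdia6 from chr12:17266471-17266529 (plus).
Hspa5: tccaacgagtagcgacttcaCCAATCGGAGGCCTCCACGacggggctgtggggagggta
Hsp90b1: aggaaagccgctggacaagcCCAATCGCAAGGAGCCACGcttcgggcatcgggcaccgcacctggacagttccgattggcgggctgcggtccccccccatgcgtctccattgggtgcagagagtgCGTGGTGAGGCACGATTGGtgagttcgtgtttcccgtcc
Calr: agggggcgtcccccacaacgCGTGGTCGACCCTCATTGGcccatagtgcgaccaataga
Canx: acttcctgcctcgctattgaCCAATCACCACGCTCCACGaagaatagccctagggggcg
Pdia6: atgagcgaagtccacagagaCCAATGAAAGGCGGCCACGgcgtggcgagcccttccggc

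Dnajc3, Creld2 and Syvn1 were tested and not called. Their stretches are chr14:118937807-118937865, chr15:88819500-88819558 and chr19:6046512-6046570, all on the plus strand.
Dnajc3: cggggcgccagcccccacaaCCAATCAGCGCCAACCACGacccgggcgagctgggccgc
Creld2: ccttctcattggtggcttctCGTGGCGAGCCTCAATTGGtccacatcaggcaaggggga
Syvn1: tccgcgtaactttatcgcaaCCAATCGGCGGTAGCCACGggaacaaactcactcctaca

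Where the capitals begin with CGTGG, as in Calr, Creld2 and the second site of Hsp90b1, the element lies on the opposite strand. Of the 8 tested members with the full element, 5 were called higher and 3 were not called, with a median log2 fold change of 1.01. Of the 19 tested members with a window and no full element, 3 were called higher, 1 lower and 15 were not called, with a median of 0.03. The 5 called with the element were all among the 9 chaperone, isomerase and lectin members, and the 3 not called had other roles. These counts cannot separate the element from the role, and an effect of the element was not tested. Outside the members, 7 tested genes held the full element, with 2 called higher, 1 lower and a median of 0.07. Of all genes tested, 17.4% were called higher. The short form of the element, ATTGG and CCACG separated by 1 base, was found in Herpud1 and Dnajb11, neither called, and in 0.0444% of all genes. Neither the XBP1 core TGACGTGG, found in 0.714% of all genes, nor the amino acid response core TGATGCAAT, found in 0.222%, was present in a member's window. A match describes the sequence only, and binding was not measured. Atf6, Derl1, Hyou1, Manf, Sec61a1 and Sil1 had no window.

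**Figure D2:**
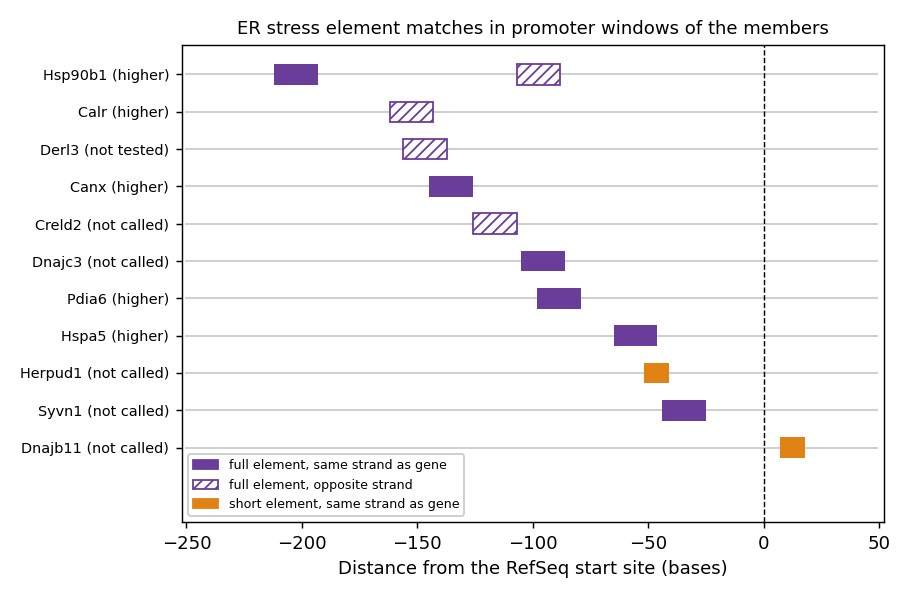
Position of the full and short ER stress element in the promoter windows of the 11 members that hold one, as distance in bases from the RefSeq start site at 0, with the call of each gene. Members called higher (Hsp90b1, Calr, Canx, Pdia6, Hspa5) and members not called (Creld2, Dnajc3, Syvn1) both hold the full element.

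The major chaperones were higher in liver in 3 of 3 members. Hspa5, encoding BiP, the HSP70 chaperone of the ER lumen that also restrains the stress sensors, lies on chromosome 2 from 34771970 to 34777547 (GRCm38, plus strand). It had 1054, 1129.6 and 702 CPM in liver 1, 2 and 3, against 426, 527 and 303 CPM in blood 1, 2 and 3. The lowest liver library, liver 3, was above the highest blood library, blood 2. The rise was 2.30-fold, or 1.20 ± 0.27 (SE) on the log2 scale, at an adjusted p of 0.00984 by edgeR. It was called under each of 17 alternative settings, with log2 fold changes of 0.96 to 1.38. The part of the hepatocyte, monocyte and other markers that were higher in liver in this rise was not tested.

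Hyou1 encodes a large HSP70 relative that exchanges the nucleotide of BiP. Its level was 72.3, 60.0 and 83.4 CPM in liver, against 26.0, 25.0 and 25.6 CPM in blood. The blood libraries were nearly equal and far below every liver library. By edgeR the log2 fold change was 1.49 ± 0.20 (adjusted p = 0.000933). Hsp90b1, encoding GRP94, the HSP90 of the ER and a folding factor for integrins and Toll-like receptors, had 335, 293 and 236 CPM in liver and 168, 151 and 98.8 CPM in blood. All liver libraries were higher, and the fold was 2.06 (log2 1.04 ± 0.24, adjusted p = 0.0102 by edgeR). Its exons overlap those of 3 other gene models, one of them antisense over 10.3% of its exon length.

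Disulfide isomerases, which form and rearrange disulfide bonds in folding proteins, rose in 3 of 4 members. P4hb encodes PDI itself, which is also a subunit of the collagen prolyl hydroxylase. It reached 352, 496 and 319 CPM in liver, against 115, 142 and 96.7 CPM in blood, and the groups were far apart. This was the largest fold among the 9 chaperone, isomerase and lectin members, 3.30 (log2 1.72 ± 0.24, adjusted p = 0.00107 by edgeR). Pdia6, an isomerase that also acts on the sensor IRE1, had 56.1, 58.3 and 52.5 CPM in liver and 31.1, 23.0 and 19.1 CPM in blood. Its liver libraries were close together and all above blood (log2 fold change 1.19 ± 0.23, adjusted p = 0.00438 by edgeR).

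Pdia4, encoding ERp72, varied more between libraries, with 69.3, 46.8 and 36.9 CPM in liver and 32.1, 19.0 and 13.6 CPM in blood. The groups did not overlap, but liver 3 and blood 1 were near each other. The call (log2 fold change 1.24 ± 0.35, adjusted p = 0.0234 by edgeR) was lost without liver 1, blood 2 or blood 3, with adjusted p of 0.0684 to 0.0959. Pdia3, encoding ERp57, the isomerase that works on glycoproteins with calnexin and calreticulin, had 96.5, 110.3 and 89.9 CPM in liver and 76.8, 64.8 and 83.0 CPM in blood. Its liver libraries were all above blood, but by little, and the difference did not pass the test (log2 fold change 0.40 ± 0.18, adjusted p = 0.119 by edgeR).

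The lectin chaperones calreticulin and calnexin, which hold newly made glycoproteins by their sugars, were both called higher. Canx, the membrane-bound one, had 243, 263 and 191 CPM in liver, against 105, 96.0 and 90.0 CPM in blood. Its blood libraries were close together, and the rise was 2.40-fold (log2 1.26 ± 0.19, adjusted p = 0.00162 by edgeR). Calr, the soluble one that also buffers ER calcium, had 345, 333 and 216 CPM in liver, against 164, 166 and 123 CPM in blood. Liver 3 and blood 3 were the low libraries of their groups. Its log2 fold change of 0.98 ± 0.23 (adjusted p = 0.0113 by edgeR) did not pass without blood 3 (adjusted p = 0.0548).

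Levels of these genes shared a pattern between libraries. Liver 3 was the lowest liver library for 8 of the 9 chaperone, isomerase and lectin members, all except Hyou1, and blood 3 the lowest blood library for 7 of 9, all except Hyou1 and Pdia3. Liver 3 also had the lowest summed level of neutrophil markers, 7745 CPM, and the highest of hepatocyte markers, 500.4 CPM. Erythroid markers were lowest in the same libraries, with sums of 2057, 2726 and 142 CPM in liver 1, 2 and 3 and 33632, 14736 and 366 CPM in blood 1, 2 and 3, and 0 of 5 called. The part of these markers in the pattern was not tested. Among the blood libraries, blood 1 had the highest summed level of platelet markers, 208 CPM. Without liver 3 and blood 1 together, 11 members were called higher and 1 lower.

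Among J proteins and other BiP cofactors, 1 of 5 tested members was called. Sdf2l1, a stress-induced partner of BiP and its J proteins, had the largest log2 fold change of all members, 2.22 ± 0.69 (adjusted p = 0.035 by edgeR), at low levels. It had 4.11, 6.26 and 5.53 CPM in liver and 2.23, 0.964 and 0.201 CPM in blood, from 253 counts in liver and 45 in blood. Blood 3, with 3 counts, was at the floor. Leaving out liver 1, liver 2, liver 3, blood 2 or blood 3 ended the call (adjusted p 0.0503 to 0.0993), and the log2 fold change was 3.16 without blood 1.

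Dnajb9, encoding ERdj4, a J protein that brings BiP to IRE1, had 164, 143 and 63.7 CPM in liver and 97.9, 70.1 and 29.7 CPM in blood. The groups overlapped, since liver 3 lay below blood 1 and 2, and the difference did not pass (log2 fold change 0.91 ± 0.48, adjusted p = 0.192 by edgeR). Without liver 3 and blood 1 its log2 fold change was 1.59 (adjusted p = 0.0357), and with no filter beyond 1 count it passed at 0.87 (adjusted p = 0.0185). Dnajb11 (ERdj3), Dnajc3 (p58IPK) and Dnajc10 (ERdj5, a reductase) had log2 fold changes of 0.25, 0.10 and -0.43, with adjusted p of 0.363, 0.770 and 0.222 by edgeR and overlapping groups. Sil1, a nucleotide exchange factor of BiP, was too low to test, with 0.261, 1.39 and 2.83 CPM in liver and 0.144, 0.263 and 0 CPM in blood. Its liver values took the same order as those of Alb, and whether hepatocyte RNA contributed was not tested.

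Of the secreted stress-induced factors, Manf was called higher and Creld2 was not called. Manf, a small protein released from stressed cells, had 25.5, 14.5 and 15.8 CPM in liver and 10.3, 6.92 and 7.18 CPM in blood. Liver 1 stood above the other liver libraries, and the call (log2 fold change 1.18 ± 0.32, adjusted p = 0.0209 by edgeR) was lost without liver 1, blood 2 or blood 3 (adjusted p 0.0674 to 0.0937). Manf shares exon bases with 3 other gene models, among them Rbm15b on the same strand over 0.397% of Manf exon length. Dcaf1 and 4930524O07Rik lie on the other strand, over 4.14% and 4.71%. Reads from shared bases cannot be told apart in these counts. Creld2, which assists folding in the same compartment, had 13.1, 14.0 and 9.65 CPM in liver and 8.48, 11.8 and 14.8 CPM in blood, and its groups overlapped (log2 fold change 0.06 ± 0.31, adjusted p = 0.895 by edgeR).

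**Figure D3:**
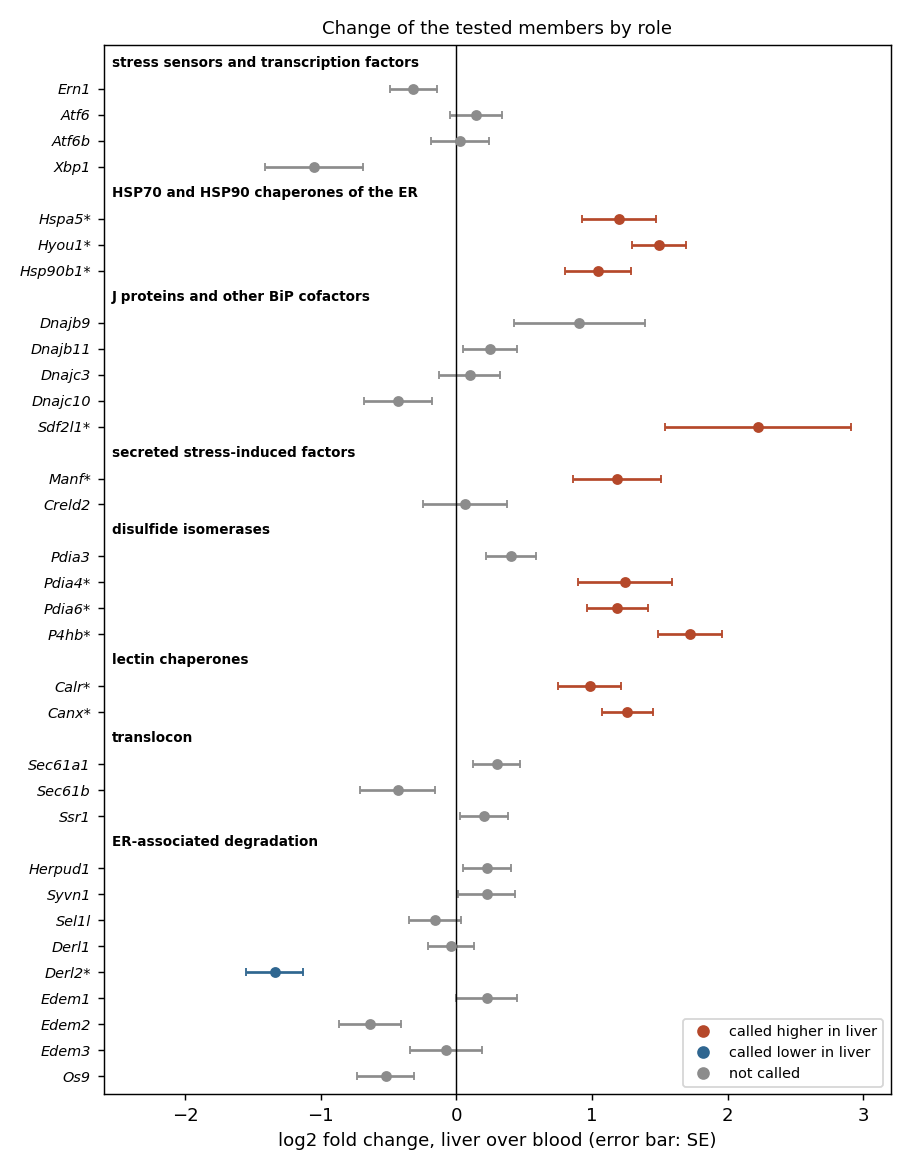
Log2 fold change, liver over blood, of the 32 tested members by role, with its SE as the error bar. Red marks the 10 members called higher, blue the 1 called lower (Derl2) and grey those not called, with Xbp1 the furthest below 0 among the grey.

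None of the 4 members that are sensors or transcription factors (Ern1, Atf6, Atf6b and Xbp1) was called. Xbp1, whose spliced mRNA encodes the main transcription factor of the IRE1 branch, had 95.9, 98.8 and 67.9 CPM in liver and 126, 299 and 119 CPM in blood. All liver libraries were below all blood libraries, and blood 2 stood far above the other blood libraries. The difference missed the threshold (log2 fold change -1.05 ± 0.36, adjusted p = 0.0559 by edgeR). It passed without blood 1 (adjusted p = 0.0361), without blood 3 (0.0270), with DESeq2 (0.0194) and with no filter beyond 1 count (3.64e-05), and the log2 fold change was -0.50 without blood 2. Blood 2 also had the highest sums of B cell markers, 121 CPM against 49.9 and 14.0 CPM in blood 1 and 3, and of plasma cell markers, 157 CPM against 84.2 and 41.6 CPM. The plasma cell sum of blood 2 was mostly Ighm, 122 CPM, and Igkc, 30.5 CPM, with Jchain and Tnfrsf17 at 0. The part of the B cell and plasma cell markers in the Xbp1 level was not tested.

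Ern1, encoding the sensor IRE1 alpha, had 57.3, 58.4 and 67.5 CPM in liver and 81.4, 73.3 and 73.7 CPM in blood. The groups did not overlap, but the log2 fold change of -0.32 ± 0.17 did not pass (adjusted p = 0.186 by edgeR). Atf6, the sensor that becomes a transcription factor once cut, had 70.9, 80.6 and 98.0 CPM in liver and 66.8, 81.4 and 77.8 CPM in blood, with overlapping groups (log2 fold change 0.14 ± 0.19, adjusted p = 0.598 by edgeR). Its relative Atf6b, which averaged 46.5 ± 10.1 CPM over liver and 45.7 ± 2.08 CPM over blood libraries (SD, n = 3 each), had a log2 fold change of 0.03 ± 0.21.

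The translocon, the channel through which new chains enter the ER, showed 0 of 3 members called. Sec61a1, the channel subunit, had 82.2, 84.6 and 79.3 CPM in liver and 63.2, 61.6 and 75.3 CPM in blood. The groups were apart but close (log2 fold change 0.30 ± 0.17, adjusted p = 0.212 by edgeR). Sec61b, the small beta subunit, and Ssr1, of the translocon-associated complex, had overlapping groups, with log2 fold changes of -0.43 and 0.21 and adjusted p of 0.256 and 0.405 by edgeR.

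Genes of ERAD had 0 of 9 tested members called higher and 1 called lower, where 17.4% of all genes were called higher and 14.2% lower. Counts over so few genes, here and for the sensors, J proteins and translocon, cannot show that a role differed from all genes. Derl2, a derlin of the membrane channel through which misfolded proteins leave, had 14.8, 14.3 and 15.6 CPM in liver, against 37.5, 33.2 and 42.5 CPM in blood. Its liver libraries lay close together and far below every blood library. The level was 2.53-fold lower (log2 fold change -1.34 ± 0.21, adjusted p = 0.00200 by edgeR), and the call held under all 17 alternatives. Its exons overlap those of Mis12 on the other strand over 2.87% of their length. Derl1, a second derlin, differed little between the groups, averaging 94.0 ± 9.25 CPM over liver and 96.7 ± 5.81 CPM over blood libraries (SD, n = 3 each; log2 fold change -0.04 ± 0.17). Derl3 was barely present, with 23 counts in liver and 5 in blood, and was not tested.

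Lectins that select glycoproteins for degradation had log2 fold changes on both sides of 0. Os9 had 217, 265 and 163 CPM in liver, against 315, 312 and 299 CPM in blood. The groups did not overlap, but the log2 fold change of -0.52 ± 0.21 did not pass (adjusted p = 0.0865 by edgeR), though it did without liver 2 (adjusted p = 0.0458). Edem2, a mannosidase-like protein that trims glycans ahead of degradation, had 16.6, 19.5 and 20.3 CPM in liver and 27.0, 34.5 and 26.3 CPM in blood, a log2 fold change of -0.64 ± 0.23 just short of the threshold (adjusted p = 0.0567 by edgeR). It was called lower with DESeq2 (adjusted p = 0.0429) and with protein-coding genes only (0.0469). Their relatives Edem1 and Edem3 had overlapping groups. Edem1 had 168, 142 and 134 CPM in liver and 119, 165 and 96.9 CPM in blood (log2 fold change 0.22 ± 0.22), and for Edem3 the log2 fold change was -0.08 ± 0.26.

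Syvn1, Sel1l and Herpud1, of the HRD1 ubiquitin ligase complex, did not pass the test. Derl2, called lower, and Os9 are given above and are not among these 3. The ligase Syvn1 and the scaffold Sel1l had log2 fold changes of 0.22 ± 0.21 and -0.16 ± 0.19, with adjusted p of 0.450 and 0.554 by edgeR. Herpud1, a stress-induced adaptor of that complex, had 95.4, 90.6 and 93.5 CPM in liver and 83.2, 66.7 and 88.9 CPM in blood. Every liver library was above blood, by a log2 fold change of 0.23 ± 0.18 (adjusted p = 0.361 by edgeR). Of the 10 ERAD genes together, the summed level was 796, 797 and 682 CPM in liver and 837, 881 and 853 CPM in blood.

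**Figure D4:**
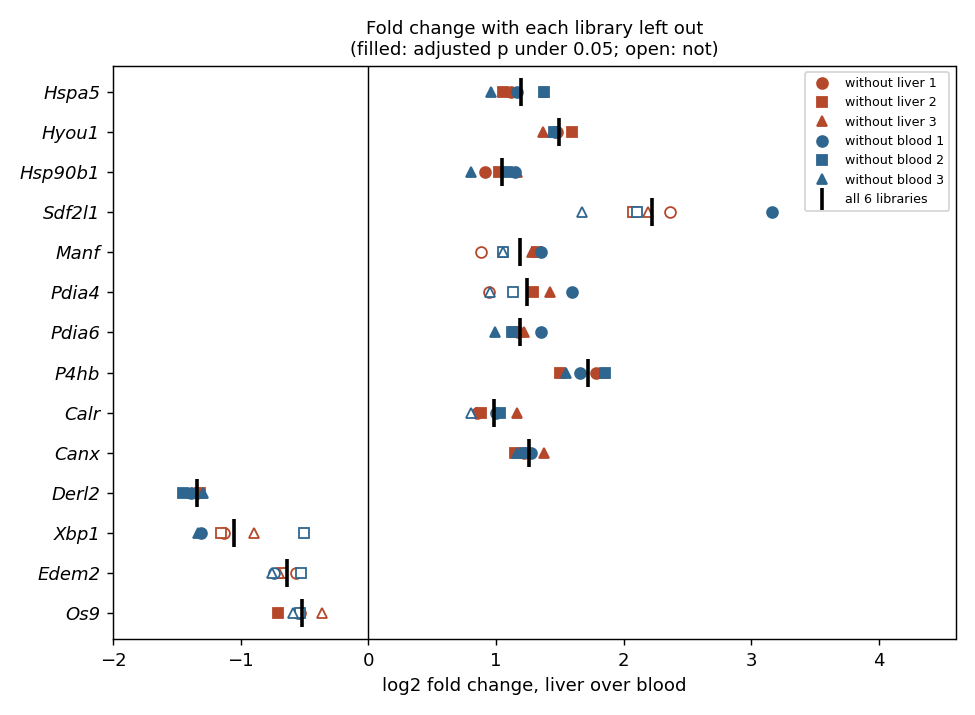
Log2 fold change, liver over blood, of the 11 called members and of Xbp1, Edem2 and Os9 with each library left out in turn (symbols, filled where the adjusted p was under 0.05) and with all 6 libraries (black bar). Hspa5, Hyou1, Hsp90b1, Pdia6, P4hb, Canx and Derl2 stay filled throughout, while Sdf2l1 is filled only without blood 1.

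Levels per kilobase of annotated exon gave another order in each group. The length joins the exons of all annotated transcripts of a gene, expressed or not, which limits comparison between genes. In liver the highest members were Hspa5 (227 ± 54.0 CPM per kilobase), P4hb (136 ± 32.8), Calr (104 ± 24.8), Os9 (81.8 ± 19.5) and Hsp90b1 (71.4 ± 12.3), each with its SD over 3 libraries. From P4hb down, neighbours in this order differed by less than the larger of their SDs. In blood the order was Os9 (117 ± 3.34 CPM per kilobase), Hspa5 (99.0 ± 26.6), Xbp1 (55.7 ± 31.5), Calr (52.4 ± 8.33) and P4hb (41.1 ± 7.88). There Os9 and Hspa5 differed by less than the SD of Hspa5, and Xbp1 and Calr by less than theirs. Of the summed CPM of the 34 members, Hspa5 took 25.1%, 25.9% and 21.4% in liver and 15.8%, 17.9% and 12.6% in blood.

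Other genes of the pathway moved both ways. Of 121 genes in 4 lists that are not members, 111 were tested, 23 were called higher and 12 lower. That is 31.5% in either direction, against 31.6% of all genes, and the median log2 fold change was -0.04. Without liver 1, 15 were called higher.

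The PERK arm and the integrated stress response, which slows translation and then restores it, had 6 of 17 genes called higher and 2 lower, where 17.4% of all genes were higher and 14.2% lower. The sensor itself, Eif2ak3 (PERK), had 95.9, 93.3 and 136 CPM in liver, against 236, 215 and 263 CPM in blood. Every liver library was lower (log2 fold change -1.14 ± 0.21, adjusted p = 0.00352 by edgeR). Its downstream transcription factor Atf4 was higher, with 331, 265 and 248 CPM in liver and 171, 167 and 103 CPM in blood (log2 fold change 0.94 ± 0.24, adjusted p = 0.0152 by edgeR), a call lost without liver 1 or blood 3 (adjusted p 0.0611 and 0.0607). Atf3, a stress-induced repressor, rose 5.38-fold, to 576, 638 and 373 CPM in liver, against 119, 99.1 and 77.0 CPM in blood (adjusted p = 0.000434 by edgeR).

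Both subunits that direct a phosphatase to eIF2 alpha were called, in opposite directions. Ppp1r15a (GADD34), the inducible one, had 1232, 929.9 and 939 CPM in liver and 353, 337 and 103 CPM in blood. Ppp1r15b (CReP), the constitutive one, had 109, 105 and 143 CPM in liver and 234, 284 and 241 CPM in blood. Their log2 fold changes were 1.97 ± 0.43 and -1.08 ± 0.20, with adjusted p of 0.00963 and 0.00347 by edgeR. Nfe2l2 (NRF2) and Eif2s1, the alpha subunit of eIF2, were 3.07-fold and 2.57-fold higher. Ddit3, encoding the stress factor CHOP, had 152, 259 and 86.1 CPM in liver and 80.9, 127 and 55.0 CPM in blood, with overlapping groups, and did not pass (log2 fold change 0.92 ± 0.43, adjusted p = 0.140 by edgeR). Chac1, Trib3 and Asns, known as targets of ATF4 or CHOP, were not called and had lower means in liver. Chac1 had 49.9, 35.5 and 14.5 CPM in liver and 77.9, 56.3 and 83.1 CPM in blood, with every liver library below blood (log2 fold change -1.12 ± 0.40, adjusted p = 0.0623 by edgeR). Trib3 and Asns had overlapping groups, with log2 fold changes of -0.85 ± 0.53 and -0.54 ± 0.54. Chac1, Trib3 and Asns were added after their values were seen and do not stand for all targets of ATF4 or CHOP. Ddit4 and Sesn2, of the same list, were not called either, with log2 fold changes of 0.36 ± 0.31 and -0.04 ± 0.30.

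Other folding factors and oxidoreductases had 7 of 23 tested genes called higher and 0 lower. In either direction this was 30.4%, against 31.6% of all genes. All of these calls were higher, where 17.4% of all genes were called higher and 14.2% lower. Calu, a calcium-binding ER protein, was 4.64-fold and Ero1lb, an oxidase that recharges PDI, 2.45-fold higher. Hspa13 and Txndc11 were 2.86-fold and 2.47-fold higher. Hspa13 kept its call without blood 2 and lost it without each of the other libraries (adjusted p 0.0709 to 0.117), and Txndc11 lost it without liver 1 or blood 1 (0.0585 and 0.0505). In the list of other ERAD and stress response regulators 5 of 36 rose and 9 fell, which is 38.9% in either direction. The ubiquitin-conjugating enzyme gene Ube2j1 was 2.15-fold higher and Bax, a death effector, 2.63-fold higher. Selenos was 1.94-fold higher, a call lost without liver 1, liver 2, blood 2 or blood 3 (0.0971 to 0.140). Fam8a1, an HRD1 cofactor, Ngly1, which strips glycans from retrotranslocated proteins, and Crebrf were 2.57-fold, 2.35-fold and 2.09-fold lower.

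For the remaining translocon, signal peptidase and oligosaccharyltransferase genes, 5 of 35 tested were called higher and 1 lower, which is 17.1% in either direction against 31.6% of all genes. Rpn2, Ddost, Rpn1 and Stt3a, subunit genes of oligosaccharyltransferase, which attaches glycans to new chains, were 2.27-fold, 2.05-fold, 2.01-fold and 1.47-fold higher. The subunit genes Stt3b, Ostc, Ost4, Dad1 and Magt1 were not called, with log2 fold changes of 0.00, 0.16, -0.25, 0.92 and 0.73. The Ddost call was lost without liver 1, blood 1 or blood 2 (adjusted p 0.0547 to 0.0679), and that of Stt3a without any one library (0.0616 to 0.147). Sec11c, a signal peptidase subunit, was 1.80-fold lower, a call lost without liver 1 (adjusted p = 0.0501).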

How the data were processed

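Per the submitters' processing notes, reads were processed with FastQC 0.11.5, STAR, RSEM and limma against GRCm38. Each deposited file holds the authors' expected counts, unscaled, for 1 library. The sources used here give neither the versions of STAR and RSEM nor the strand setting. The labels' protocols name a stranded low-input total-RNA kit read as paired ends. Expected counts were rounded to whole numbers. Of 53090 rows, 98.9% matched GENCODE M21, which gave coordinates and exon lengths, and no member symbol was repeated.

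Genes kept by filterByExpr (minimum count 10, minimum total 15) were scaled by TMM. Liver was set over blood in the robust quasi-likelihood test of edgeR 4.0.16, run in R 4.3.3, with adjustment by Benjamini-Hochberg over 13458 genes. The SE was derived from the F statistic. The script was tested on simulated data. DESeq2 1.42.0 and voom of limma 3.58.1 were among 17 alternatives. Floors cover counting error only. No pair of libraries within a group was 1 library counted again (chi-square per degree of freedom 52.1 to 79.0 over genes). P-values reflect only how far these libraries spread, which may be technical.

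The members and lists were chosen with earlier results of these data known. Per-library levels are given for called members and for Xbp1, Ern1, Atf6 and Hspa5, and for others where they bear on a comparison. Of the other pathway genes, up to 4 rises and 4 falls per list are named by size, from called genes whose groups are apart and whose mean over the 6 libraries reaches 10 CPM. One gene that this rule names is not reported here. Atf4, Ddit3, Chac1, Trib3, Asns, Ddit4, Sesn2 and the uncalled oligosaccharyltransferase genes were added after their values were seen. Promoter sequences are from RefSeq.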

Additional observations from a re-analysis of the deposited data

How the results depend on the processing

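Over 17 alternatives, the 11 called members kept direction and call in 175 of 187 values and lost the call in 12, all of them with 1 library left out. With 1 library left out, 6 to 10 members were called higher and 1 to 2 lower, and 15 to 20 other pathway genes were called higher and 8 to 12 lower. The count of members called lower, 1, became 2 with no filter beyond 1 count, 2 with protein-coding genes only and 3 with DESeq2. Whether the numbers shared by the labels pair the samples was not settled. Correlations of deviations from the group means were 0.054, 0.156 and 0.023 for same-numbered libraries and -0.175 to 0.12 for the others. With 3 libraries a group, such correlations cannot exclude pairing. With a replicate block, 11 members were called higher and 4 lower, and 25 other pathway genes higher and 13 lower; the block added Dnajb9 (adjusted p = 0.0029), Xbp1 (0.0253), Os9 (0.0334) and Edem2 (0.0463). The median log2 fold change of the tested members, 0.22, was 0.31 with upper-quartile factors and 0.31 with a minimum count of 50, where that of all genes moved by 0.0868 and -0.0496, and it was 0.14 to 0.25 with 1 library left out. Among members not called, 13 of 357 values passed the threshold and 17 changed sign. Atf6 was at -0.10 without liver 3 and blood 1, Atf6b at -0.0017 with no filter beyond 1 count, and Derl1 and Edem3 at 0.047 and 0.014 with upper-quartile factors and at 0.0495 and 0.017 with a minimum count of 50. With 1 library left out, Atf6b ran from -0.11 to 0.19, Dnajc3 from -0.062 to 0.22, Creld2 from -0.16 to 0.22, Derl1 from -0.12 to 0.0286 and Edem3 from -0.27 to 0.10. With no filter beyond 1 count the median of all genes moved by 0.38, over more genes tested. The causes were not tested. The precision of Sdf2l1, Sil1 and Derl3 is limited by their low counts.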

Other observations

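Outside the members, 28 genes of the promoter table held the full ER stress element, and 7 of them had enough counts to be tested. By edgeR's test, 2 were called higher in liver and 1 lower, with a median log2 fold change of 0.07. Ero1lb, the PDI oxidase gene, averaged 109 CPM over liver and 44.4 CPM over blood libraries (log2 fold change 1.29 ± 0.22, adjusted p = 0.00267 by edgeR). Hnrnpa3, an RNA-binding protein gene, averaged 414 CPM over liver and 272 CPM over blood libraries (log2 fold change 0.60 ± 0.18, adjusted p = 0.0307 by edgeR). Calr4, a calreticulin relative, averaged 1.30 CPM over liver and 4.22 CPM over blood libraries (log2 fold change -1.69 ± 0.54, adjusted p = 0.0385 by edgeR). These genes were looked at after the members' promoters had been searched.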
